A study of Mus musculus with 14 samples.

Results

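The matrix metalloproteinases (MMP), the ADAM and ADAMTS proteases, the ADAMTS-like proteins (ADAMTSL) and the tissue inhibitors of metalloproteinases (TIMP) were followed through the differentiation of C2C12 cells, an established line of mouse skeletal muscle myoblasts. The genes were taken by name and class: protein-coding genes whose symbols begin with Mmp, Adam or Adamts and a number (Adamtsl included), and Timp1 to Timp4. They numbered 83 of the 49671 genes of the count table. The set held 22 MMP, 33 ADAM, 19 ADAMTS, 5 ADAMTSL and 4 TIMP genes.

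RNA was sequenced in 14 libraries, 2 in each of 7 groups. The groups are day 0, when cells grew in 20% fetal calf serum (FCS), and days 2 and 7 in each of 3 differentiation media, DM1, DM2 and DM3. DM1 is the usual myogenic medium, with serum lowered to 2% horse serum. DM2 contained 10% FCS with insulin (1 µg/ml), IBMX, which blocks phosphodiesterases (0.5 mM), dexamethasone, a glucocorticoid (0.5 µM), and rosiglitazone, which activates PPAR-gamma (2 µM), a cocktail used to turn cells into fat cells. In DM3 the same cocktail was added to 2% horse serum. DM3 against DM1 therefore differs in the cocktail alone, and DM3 against DM2 differs in which serum was used and in how much of it. All libraries come from a single cell line. The labels do not say whether the replicates of a group were grown separately, so the p-values cover the variation seen between libraries, part or all of which may be technical.

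MMPs are zinc enzymes that cut collagens, laminins, proteoglycans and other matrix proteins. Most are secreted as inactive proenzymes, and a few sit in the plasma membrane. ADAMs are membrane-bound and release the outer parts of other membrane proteins, and some have lost catalytic activity. ADAMTS enzymes are secreted and cut proteoglycans such as aggrecan and versican or trim the N-terminal propeptides of procollagens, whereas ADAMTSL proteins share their ancillary domains without the protease. TIMPs bind and block these enzymes, and TIMP2 also takes part with MMP14, a membrane-type MMP, in activating pro-MMP2. In muscle, MMP2 is known as a gelatinase made by myoblasts, and ADAM12 has been studied for its link to myoblast fusion.

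Expected counts per library summed to between 21907617 and 29784885. Levels are in CPM, counts scaled to 1000000 per library after TMM scaling. The 2 libraries of a group had Spearman correlations across genes of 0.987 to 0.995, except DM3 day 2 at 0.962. Replicate 2 of DM3 day 2 stood apart, with 0.584% of its counts in processed pseudogenes. Counts were found in 17779 genes there, against 19698 to 21166 in the other libraries. Expected counts were not whole for 4.18% of genes, against 9.66% to 10.5% in the others. The levels of single genes at DM3 day 2 below include this library. Counts of called genes at day 2 are therefore also given with 3 libraries of low pseudogene share left out, namely that library, DM1 day 2 replicate 1 and day 0 replicate 1. The muscle markers fitted the label: 8 of 8 had counts, and their summed level lay between 1236 and 2686 CPM in all groups except DM3 day 7, where it was 19730 and 20623 CPM. The sum hid changes of single markers. By edgeR at an adjusted p under 0.05, 5 of 8 were higher and 2 lower at DM2 day 7 than at day 0. Over all tested genes 24.5% were higher and 30.9% lower there. Myog had 32.0 and 32.2 CPM at DM2 day 7, against 1.74 and 1.87 CPM at day 0. Acta1 had 243 and 247 CPM, against 3.49 and 3.54 CPM, while Des had 427 and 511 CPM, against 931 and 796 CPM. At DM1 day 7 Acta1 had 561 and 422 CPM. The adipocyte markers summed to at most 8.88 CPM in any library. In bulk RNA, fewer cells of a type and less RNA per cell cannot be told apart.

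Of the 83 genes, 45 had enough counts to be tested: 14 MMP, 12 ADAM, 12 ADAMTS, 4 ADAMTSL and 3 TIMP genes. A further 20 had at least 1 count but too few for a test, among them Timp4 with at most 8 counts in a library. The remaining 18 were at 0 in all 14 libraries, and 12 of these were ADAM genes. Some genes passed the count filter only through the group in which they were high, so counts over the 45 tested genes describe these genes and support nothing beyond them. Per kilobase of exon and averaged over libraries, the order of levels began with Timp2 at 228 CPM per kb, Timp1 at 166, Mmp2 at 135, Adam9 at 54.3, Adam10 at 39.7, Adam19 at 34.6 and Mmp14 at 32.9.

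**Figure D1:**
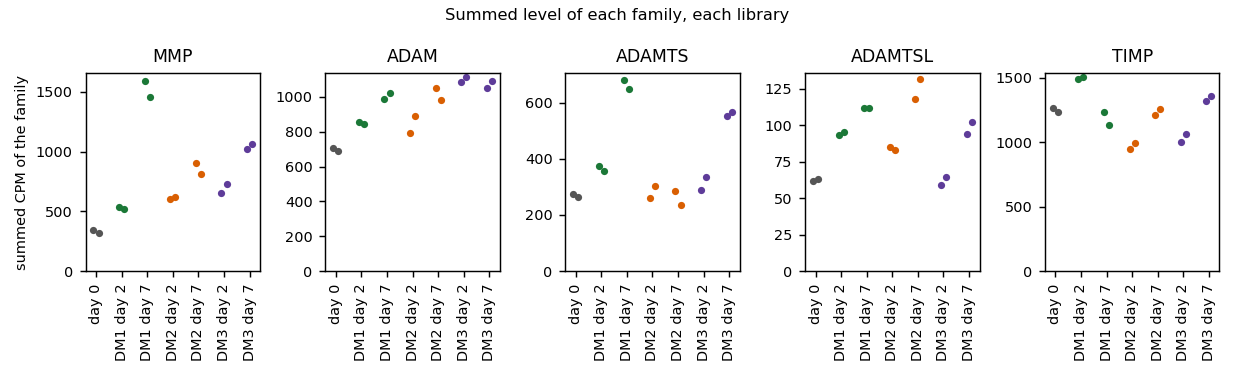
Summed level of each family in CPM (vertical axis) in each of the 14 libraries, 1 point per library, by group (horizontal axis). The MMP sum lay at 344 and 321 CPM at day 0 and was highest at DM1 day 7, with 1593 and 1458 CPM, while the TIMP sum stayed between 944 and 1506 CPM.

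The summed MMP level was above day 0 in each of the 12 differentiation libraries. It was 1593 and 1458 CPM at DM1 day 7, 906 and 811 CPM at DM2 day 7 and 1023 and 1064 CPM at DM3 day 7, against 344 and 321 CPM at day 0. The TIMP sum moved less: 1237 and 1130 CPM at DM1 day 7, 1212 and 1254 CPM at DM2 day 7 and 1318 and 1357 CPM at DM3 day 7, against 1265 and 1231 CPM at day 0. Per kilobase, the ratio of the summed MMP level to the summed TIMP level was 0.983 and 0.969 at DM1 day 7, 0.742 and 0.625 at DM2 day 7 and 0.710 and 0.726 at DM3 day 7, against 0.148 and 0.147 at day 0. Part of this shift was a lower TIMP sum per kilobase. That sum was 449 and 417 CPM per kb at DM1 day 7, 346 and 365 at DM2 day 7 and 397 and 404 at DM3 day 7. At day 0 it was 512 and 487 CPM per kb. Mmp2 made up most of the rise of the MMP sum in CPM. It held 68.8% and 67.7% of that sum at DM1 day 7 and 55.0% and 53.2% at DM2 day 7. Its share was 72.5% in both libraries of DM3 day 7, against 15.0% and 15.8% at day 0. These sums carry no test.

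Against day 0, the genes of the set were called higher more often than lower in every medium and on both days. A gene was called where its Benjamini-Hochberg adjusted p, from edgeR's quasi-likelihood test over 15973 genes, was under 0.05. In DM1 22 of 45 were called at day 2, 20 higher and 2 lower. Over all tested genes 29.7% were called there, 15.2% higher and 14.6% lower. The lower calls numbered 1 without day 0 replicate 2 or DM1 day 2 replicate 1. At DM1 day 7 30 were called, 27 higher and 3 lower, where 53.5% of all tested genes were called, 27.7% higher and 25.8% lower. At DM2 day 2 29 were called, 18 higher and 11 lower (49.7% of all tested genes, 23.5% higher and 26.2% lower). At DM2 day 7 33 were called, 20 higher and 13 lower (55.4% of all tested genes, 24.5% higher and 30.9% lower). At DM3 day 2 33 were called, 26 higher and 7 lower (50.9% of all tested genes, 25.5% higher and 25.4% lower). At DM3 day 7 36 were called, 22 higher and 14 lower (59% of all tested genes, 28.9% higher and 30.1% lower). As shares of the 45 genes these counts came to 48.9%, 66.7%, 64.4%, 73.3%, 73.3% and 80%. The median log2 fold change of the 45 genes was 0.90 at DM1 day 7, where that of all tested genes was 0.055, and 0.043 at DM2 day 7, where it was -0.030. With the 3 libraries of low pseudogene share left out the day 2 counts were 19 in DM1, 29 in DM2 and 26 in DM3. All 6 comparisons share the day 0 libraries and are not independent of one another.

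**Figure D2:**
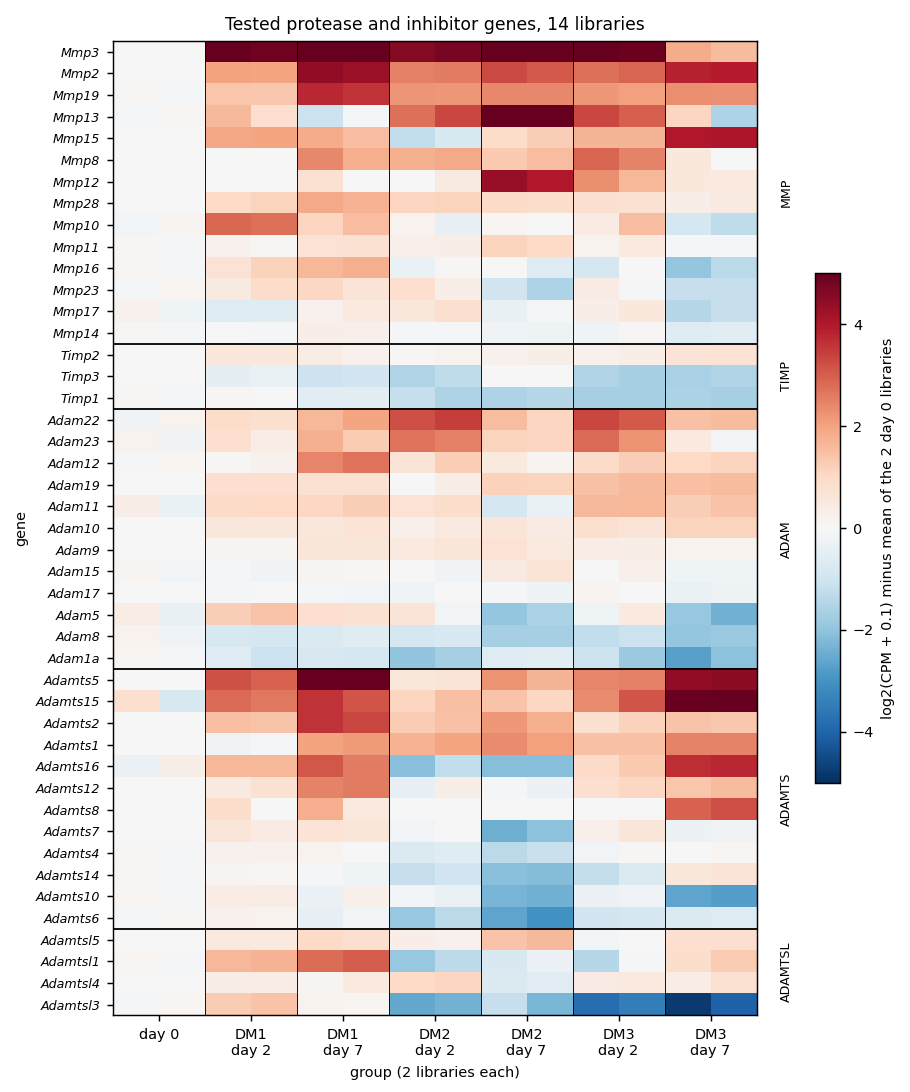
Difference of each library's log2(CPM + 0.1) from the mean of the 2 day 0 libraries (colour, which saturates at 5 in either direction) for the 45 tested genes (rows, by family) in the 7 groups (columns, 2 libraries each). Mmp2, Mmp3, Mmp19 and Adamts5 are above day 0 in every differentiation library, Adam8 is below it in each, and the DM3 day 7 columns are highest for Mmp15, Adamts15 and Adamts16.

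Across the 6 comparisons with day 0, 8 of the 45 genes were called higher in all 6: Mmp2, Mmp3, Mmp19, Mmp28, Adam10, Adam22, Adamts2 and Adamts5. Adam8 was the single gene of the set called lower in all 6. Over all tested genes 4.71% were called higher in all 6 and 5.65% lower in all 6, against 17.8% and 2.22% of the 45. Without day 0 replicate 1 the DM1 day 2 call of Adam22 was lost (1.62-fold in place of 1.84-fold), and without DM2 day 2 replicate 2 that of Adam10 at DM2 day 2 (1.19-fold in place of 1.30-fold). Another 10 were called higher in one comparison and lower in another: Adamts14, Adamts16, Adamts7, Adamtsl1, Adamtsl3, Adamtsl4, Mmp10, Mmp14, Mmp15 and Mmp16. These are 22.2% of the 45 genes, where 17.3% of all tested genes had calls in both directions. The group with the highest mean was DM1 day 7 for 12 genes, DM3 day 7 for 9, DM1 day 2 and DM2 day 7 for 7 each, DM2 day 2 for 4, and day 0 and DM3 day 2 for 3 each. The lowest mean was at day 0 for 17 genes, DM3 day 7 for 12 and DM2 day 7 for 9. It was at DM3 day 2 for 3, DM2 day 2 for 2, and DM1 day 2 and DM1 day 7 for 1 each. The same ranking was not made over all tested genes, so these counts have no background beside them.

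Mmp2, which encodes gelatinase A (ENSMUSG00000031740, GRCm38 chr8:92827291-92853420), rose in every medium. Its level was 51.5 and 50.6 CPM at day 0, 208 and 201 CPM at DM1 day 2 and 1096 and 987 CPM at DM1 day 7. In DM2 it was 290 and 302 CPM at day 2 and 499 and 431 CPM at day 7, and in DM3 342 and 381 CPM at day 2 and 741 and 771 CPM at day 7. No differentiation library overlapped the day 0 libraries, and at day 7 the 3 media did not overlap one another. The log2 fold change over day 0 at day 7 was 4.35 ± 0.11 in DM1 (SE; 20.4-fold; adjusted p = 9.06e-11), 3.19 ± 0.10 in DM2 (9.12-fold) and 3.89 ± 0.10 in DM3 (14.8-fold), from edgeR's quasi-likelihood test. DM3 was above DM1 at day 2 (log2 fold change 0.82 ± 0.09) and below it at day 7 (-0.46 ± 0.09), and this change of the difference between the days was itself called (-1.28 ± 0.13; edgeR adjusted p = 2.17e-05).

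The genes around pro-MMP2 activation moved less. Mmp14, the membrane-type enzyme that activates pro-MMP2, had 133 and 140 CPM at DM3 day 7, 258 and 246 CPM at DM1 day 7 and 182 and 174 CPM at DM2 day 7, against 217 and 200 CPM at day 0. It was the lowest at DM3 day 7, without overlap with any other group (log2 fold change over DM1 day 7 of -0.88 ± 0.09; edgeR adjusted p = 5.6e-06). Timp2 stood at 1141 and 1173 CPM at DM3 day 7 and 1010 and 1018 CPM at DM1 day 2, against 722 and 690 CPM at day 0. Both rises were called (log2 fold changes of 0.71 ± 0.09 and 0.52 ± 0.09). Per kilobase, the ratio of Mmp2 to Timp2 was 1.38 and 1.41 at DM1 day 7, 0.696 and 0.569 at DM2 day 7 and 0.751 and 0.760 at DM3 day 7, against 0.0824 and 0.0847 at day 0.

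Timp1 fell in both media with the cocktail and by less in DM1 at day 7. This secreted inhibitor of most MMPs had 259 and 242 CPM at day 0, 262 and 257 CPM at DM1 day 2 and 174 and 169 CPM at DM1 day 7. With the cocktail it was 111 and 85.5 CPM at DM2 day 2, 85.9 and 93.1 CPM at DM2 day 7, 78.5 and 79.1 CPM at DM3 day 2 and 82.7 and 79.7 CPM at DM3 day 7. All 8 libraries with the cocktail were below all 6 without it. DM3 day 2 differed from DM1 day 2 by a log2 fold change of -1.72 ± 0.11 (3.29-fold lower; edgeR adjusted p = 3.6e-07), and day 7 by -1.08 ± 0.11.

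Timp3, the inhibitor that binds the matrix and also blocks ADAM17, separated DM2 from DM3 at day 7. It had 298 and 286 CPM at DM2 day 7 and 104 and 121 CPM at DM2 day 2, against 285 and 299 CPM at day 0. In DM3 it was 101 and 91.6 CPM at day 2 and 94.0 and 104 CPM at day 7, and in DM1 216 and 231 CPM at day 2 and 143 and 151 CPM at day 7. The DM2 day 7 values overlapped those of day 0 and lay above every other differentiation library. DM3 day 7 was lower than DM2 day 7 by a log2 fold change of -1.56 ± 0.10 (2.95-fold; edgeR adjusted p = 6.6e-08), and DM2 day 7 was higher than DM2 day 2 by 1.37 ± 0.10.

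A block of MMP genes on chromosome 9 includes 5 tested genes, and their promoters are shown because neighbouring genes there took different courses in the 3 media. The block held 9 genes of the set between positions 7272514 and 7699585 of GRCm38, over 427 kb, in the order Mmp13, Mmp12, Mmp1b, Mmp3, Mmp10, Mmp8, Mmp27, Mmp20 and Mmp7. Mmp1b lies on the minus strand and its end overlaps Mmp12. Mmp1b, Mmp27 and Mmp20 were at 0 in all libraries, and Mmp7 had 3 counts in all. The stretches below run from 120 bases before to 50 bases after the RefSeq start (GRCm38.p6, plus strand). Capitals mark an AP-1 motif (TGANTCA) and a TATA motif (TATAAA, or TTTATA where the match is on the other strand).
Mmp13, chr9:7272394-7272563: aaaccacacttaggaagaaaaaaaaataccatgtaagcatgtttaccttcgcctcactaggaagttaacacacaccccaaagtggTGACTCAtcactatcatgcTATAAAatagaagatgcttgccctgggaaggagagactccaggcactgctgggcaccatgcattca
Mmp12, chr9:7347254-7347423: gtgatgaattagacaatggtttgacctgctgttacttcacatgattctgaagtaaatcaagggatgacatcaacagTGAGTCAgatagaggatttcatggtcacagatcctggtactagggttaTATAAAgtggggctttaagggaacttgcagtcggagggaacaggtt
Mmp3, chr9:7445702-7445871: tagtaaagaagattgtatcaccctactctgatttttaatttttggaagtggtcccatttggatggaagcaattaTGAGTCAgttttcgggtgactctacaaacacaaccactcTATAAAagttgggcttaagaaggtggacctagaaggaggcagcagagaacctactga
Mmp10, chr9:7502222-7502391: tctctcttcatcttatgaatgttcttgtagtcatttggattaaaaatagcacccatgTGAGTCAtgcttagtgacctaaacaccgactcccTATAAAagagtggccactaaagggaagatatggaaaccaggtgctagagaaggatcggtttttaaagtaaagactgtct
Mmp8, chr9:7558309-7558478: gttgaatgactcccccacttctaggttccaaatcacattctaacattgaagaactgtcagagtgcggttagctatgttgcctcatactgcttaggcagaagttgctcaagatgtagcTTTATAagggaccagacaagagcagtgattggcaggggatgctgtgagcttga

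In Mmp13, Mmp3 and Mmp10 the AP-1 motif began 35, 46 and 63 bases before the start, and the TATA motif 16, 7 and 29 bases before it. In Mmp12 the stretch belongs to the second RefSeq start, where the AP-1 motif began 44 bases before the start and the TATA motif lay just after it; the first start had neither. Mmp8 held a TATA motif alone. Searched on both strands over windows of 250 bases before to 50 after the start, the AP-1 motif was in 7.81% and the TATA motif in 13.6% of all 32851 RefSeq windows, and both were in 1.54%. RefSeq windows were at hand for 28 of the 45 tested genes (32 windows). The AP-1 motif was in those of Mmp13, Mmp12, Mmp3, Mmp10 and Adam19. Both motifs were in those of Mmp13, Mmp12, Mmp3 and Mmp10 alone. The full cAMP response element TGACGTCA was in 1.79% of all windows and in 0 of the 32. A match describes letters in the window and does not show a site in use.

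**Figure D3:**
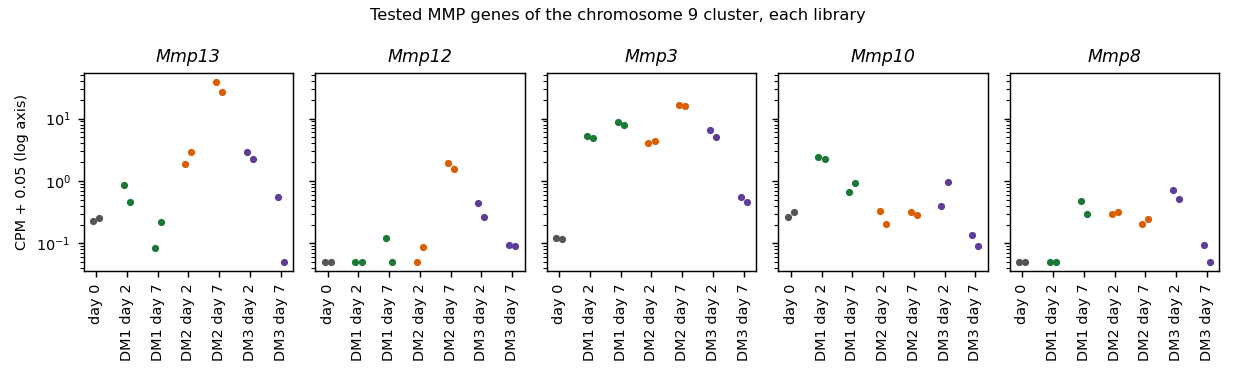
Level as CPM + 0.05 on a log axis (vertical; a library with no count lies at 0.05) of the 5 tested genes of the chromosome 9 block, 1 point per library, by group (horizontal). Mmp13 and Mmp12 peak at DM2 day 7, Mmp10 at DM1 day 2, and Mmp3 is above day 0 in every differentiation library and, among these, lowest at DM3 day 7.

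Mmp13, the interstitial collagenase of rodents (ENSMUSG00000050578, GRCm38 chr9:7272514-7283331), was high in a single group. It had 38.2 and 26.2 CPM at DM2 day 7 and 1.84 and 2.82 CPM at DM2 day 2, against 0.174 and 0.204 CPM at day 0. In DM3 it was 2.82 and 2.22 CPM at day 2 and 0.507 and 0 CPM at day 7, and in DM1 0.798 and 0.413 CPM at day 2 and 0.0356 and 0.167 CPM at day 7. The day 2 libraries of DM2 and DM3 overlapped, and the day 7 libraries lay far apart. The log2 fold change at DM2 day 7 over day 0 was 7.37 ± 0.86 (166-fold; edgeR adjusted p = 0.000106). DM3 day 7 was lower than DM2 day 7 by -6.97 ± 0.85, which is 126-fold in the fit and 62.7-fold without DM3 day 7 replicate 2, which had 0 counts. Without replicate 1 that library stands alone, and DM3 day 7 was at least 261-fold lower than the mean of DM2 day 7 against a floor of 3 counts per library.

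Markers of other cells were read beside this peak. Of the chondrocyte and osteoblast list, which shares Mmp13 expression in the skeleton, 3 of 6 had counts at DM2 day 7, with a summed level of 126 and 133 CPM, against 69.5 and 75.5 CPM at day 0. Nearly all of it was Sox9, with 126 and 133 CPM at DM2 day 7; Ibsp was at 0 in all libraries, and Acan had 3 counts in all. In the other groups this sum ran from 36.8 to 90.1 CPM. The macrophage and leukocyte list, 4 of 6 with counts, summed to 6.44 and 7.00 CPM at DM2 day 7, against 1.43 and 1.57 CPM at day 0, and between 1.35 and 4.52 CPM elsewhere. Cd68 gave 6.17 and 6.77 CPM of that sum, while Adgre1 was at 0 and Ptprc had 4 counts over all libraries. The part of these cells in the levels of Mmp13 and Mmp12 was not tested.

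Mmp3, stromelysin-1, which cuts many matrix proteins and activates other pro-MMPs, was nearly absent at day 0. It had 0.0698 and 0.0681 CPM at day 0, 5.29 and 4.84 CPM at DM1 day 2 and 8.80 and 7.72 CPM at DM1 day 7. In DM2 it reached 3.97 and 4.39 CPM at day 2 and 16.4 and 15.99 CPM at day 7, and in DM3 it had 6.61 and 5.01 CPM at day 2 and 0.507 and 0.411 CPM at day 7. All differentiation libraries lay above day 0, and DM3 day 7 lay below all the others. The log2 fold change over day 0 was 7.78 ± 0.26 at DM2 day 7 (220-fold; edgeR adjusted p = 5.05e-10), with 4 counts in the day 0 libraries together. DM3 day 7 was 17.8-fold lower than DM1 day 7 (-4.16 ± 0.20) and 35-fold lower than DM2 day 7 (-5.13 ± 0.21).

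Mmp10, stromelysin-2, which follows Mmp3 in the order of the set on chromosome 9, was highest at DM1 day 2. It had 2.35 and 2.21 CPM at DM1 day 2 and 0.606 and 0.876 CPM at DM1 day 7, against 0.209 and 0.273 CPM at day 0. The DM1 day 2 libraries were above all the others, and the log2 fold change over day 0 was 3.22 ± 0.50 (9.29-fold; edgeR adjusted p = 0.000507). In 10 libraries the expected counts of Mmp3 and of Mmp10 were not whole (tolerance 1e-09), so reads shared with a near copy were divided by the authors' counting, and their levels are uncertain to that extent. Mmp12, the macrophage elastase, had 51 and 39 counts at DM2 day 7, against 0 in both day 0 libraries. It was at least 16.6-fold higher at DM2 day 7 against a floor of 3 counts per library. Mmp8, the neutrophil collagenase, had 28 counts at DM3 day 2 and 0 at day 0, at least 5.35-fold higher against the same floor, and 1 count at DM3 day 7. Over DM3 day 7, with 2 counts, Mmp12 at DM2 day 7 had 41.3 times as many scaled counts (95% counting interval 11.1 to 346, which covers counting error only).

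Among the remaining MMP genes, Mmp15, Mmp16 and Mmp17, all membrane-type, did not move together. Mmp15 had 54.6 and 56.7 CPM at DM3 day 7, 12.4 and 9.98 CPM at DM1 day 7 and 6.36 and 7.98 CPM at DM2 day 7, against 3.38 and 3.30 CPM at day 0. DM3 day 7 was above all other libraries, by a log2 fold change of 4.05 ± 0.17 over day 0 (16.6-fold; edgeR adjusted p = 1.21e-09), 2.31 ± 0.15 over DM1 day 7 and 2.96 ± 0.16 over DM2 day 7. At DM2 day 2 it was 1.36 and 1.95 CPM, below day 0 (-1.01 ± 0.18). The muscle marker sum was also far above all other groups at DM3 day 7, and its part in the level of Mmp15 was not tested. Mmp16 ran the other way, with 0.296 and 0.493 CPM at DM3 day 7, against 4.63 and 5.22 CPM at DM1 day 7 (-3.62 ± 0.40; 12.3-fold lower). Mmp17 had 0.254 and 0.329 CPM at DM3 day 7, against 0.998 and 1.25 CPM at DM1 day 7 (-1.93 ± 0.37).

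The secreted Mmp19 and Mmp28 rose in every medium, with their peak at DM1 day 7. Mmp19, which cuts basement membrane proteins, had 89.9 and 79.6 CPM at DM1 day 7, 34.9 and 34.8 CPM at DM2 day 7 and 32.6 and 32.3 CPM at DM3 day 7, against 6.73 and 6.23 CPM at day 0. Its log2 fold change over day 0 was 3.71 ± 0.09 at DM1 day 7 (13.1-fold; edgeR adjusted p = 9.71e-11). Mmp28, epilysin, had 41.0 and 36.4 CPM at DM1 day 7, against 11.1 and 10.7 CPM at day 0 (1.82 ± 0.10). Mmp11, stromelysin-3, was highest at DM2 day 7 with 104 and 97.3 CPM, against 50.0 and 46.9 CPM at day 0 (1.05 ± 0.10).

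**Figure D4:**
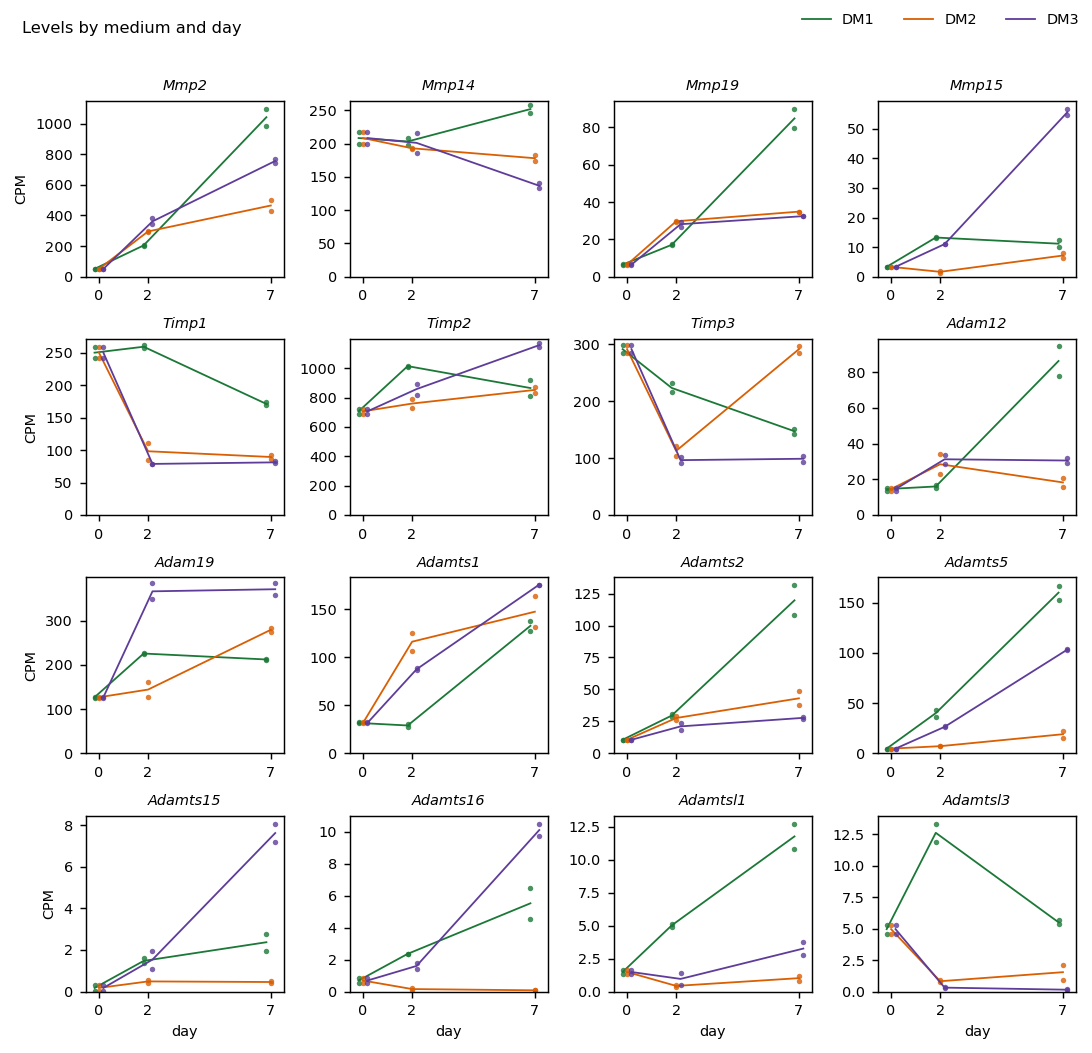
Level in CPM (vertical axes, linear from 0, which differ in range) at days 0, 2 and 7 (horizontal) in the 3 media for 16 genes; points are libraries, lines join the means of the 2 libraries, and the day 0 libraries are the same for all media. Mmp2 is higher at day 7 than at day 2 in each medium, Adamts16 is higher at day 7 in DM1 and DM3 and stays at or below 0.229 CPM in DM2, and Timp3 is back at its day 0 level in DM2 at day 7.

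Among the widely expressed ADAM genes, Adam17 stayed in a narrow range while Adam10 and Adam19 rose. Adam17, the TNF-alpha converting enzyme, lay between 78.6 and 110 CPM in all libraries. Adam10, the main alpha-secretase and Notch sheddase, had 278 and 283 CPM at DM3 day 7, against 130 and 130 CPM at day 0 (log2 fold change 1.11 ± 0.10; edgeR adjusted p = 1.15e-06). Adam9 ranged from 172 to 288 CPM. Adam19, a meltrin of the heart and nerve, had 358 and 384 CPM at DM3 day 7 and 348 and 385 CPM at DM3 day 2, against 126 and 128 CPM at day 0. All 4 DM3 libraries lay above every other library, and the log2 fold change at DM3 day 7 over day 0 was 1.55 ± 0.10 (2.93-fold).

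Adam12, the meltrin studied in myoblast fusion, was high in one group. It had 78.2 and 94.5 CPM at DM1 day 7, 20.6 and 15.95 CPM at DM2 day 7 and 29.3 and 31.7 CPM at DM3 day 7, against 13.7 and 15.3 CPM at day 0. DM1 day 7 lay above every other library, whose highest value was 34.0 CPM. Its log2 fold change was 2.57 ± 0.19 over day 0 (5.94-fold; edgeR adjusted p = 8.73e-07), and DM3 day 7 was 2.83-fold lower than DM1 day 7.

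Adam22 and Adam23, which lack protease activity and bind LGI proteins in neurons, peaked at day 2 in both media with the cocktail. Adam22 had 19.5 and 22.8 CPM at DM2 day 2 and 20.9 and 17.3 CPM at DM3 day 2, against 1.74 and 2.28 CPM at day 0. The highest level in any other group was 8.06 CPM. Its log2 fold changes over day 0 were 3.39 ± 0.20 in DM2 (10.5-fold; edgeR adjusted p = 1.34e-07) and 3.24 ± 0.20 in DM3 (9.45-fold). Adam23 had 2.12 and 1.87 CPM at DM2 day 2 and 2.29 and 1.5 CPM at DM3 day 2, against 0.279 and 0.204 CPM at day 0 (3.02 ± 0.43 and 2.94 ± 0.43).

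Adam8, an ADAM best known in leukocytes, fell in all 6 comparisons with day 0. It had 9.13 and 9.65 CPM at DM3 day 7, 11.0 and 10.9 CPM at DM2 day 7 and 21.1 and 23.0 CPM at DM1 day 7, against 39.5 and 31.2 CPM at day 0. No differentiation library reached the lower day 0 value. The log2 fold change at DM3 day 7 was -1.91 ± 0.12 (3.76-fold lower; edgeR adjusted p = 4.6e-08). Adam1a had non-whole expected counts in all 14 libraries and is therefore uncertain.

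The 2 ADAMTS genes that lie side by side on chromosome 16, Adamts1 and Adamts5, both rose at day 7 in every medium. Both cut aggrecan and versican, and they are 53059 bases apart on the minus strand. Adamts5 had 4.64 and 4.63 CPM at day 0, 43.5 and 36.5 CPM at DM1 day 2 and 167 and 153 CPM at DM1 day 7. In DM3 it was 25.7 and 26.9 CPM at day 2 and 103 and 104 CPM at day 7, and in DM2 6.93 and 7.21 CPM at day 2 and 22.5 and 15.5 CPM at day 7. At day 7 the 3 media did not overlap. Over day 0 the log2 fold change at day 7 was 5.11 ± 0.17 in DM1 (34.5-fold; edgeR adjusted p = 4.81e-10), 4.48 ± 0.16 in DM3 (22.2-fold) and 2.03 ± 0.15 in DM2 (4.09-fold).

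Adamts1 kept another order. It had 107 and 125 CPM at DM2 day 2 and 86.3 and 88.6 CPM at DM3 day 2, whereas DM1 day 2 libraries, at 27.8 and 30.1 CPM, were close to the 32.1 and 31.2 CPM of day 0. By day 7 it stood at 128 and 138 CPM in DM1, 164 and 131 CPM in DM2 and 176 and 176 CPM in DM3. DM3 day 2 was above DM1 day 2 by a log2 fold change of 1.60 ± 0.11 (3.02-fold; edgeR adjusted p = 6.91e-07). For Adamts5 the same comparison went down (-0.60 ± 0.14), and without DM1 day 2 replicate 1 that call was lost (1.39-fold in place of 1.52-fold).

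Adamts16 (ENSMUSG00000049538, GRCm38 chr13:70727802-70841811, minus strand), a fibronectin-cutting protease, parted DM2 from the other media. It had 9.72 and 10.5 CPM at DM3 day 7 and 1.41 and 1.79 CPM at DM3 day 2, against 0.523 and 0.852 CPM at day 0. In DM1 it was 2.35 and 2.36 CPM at day 2 and 6.48 and 4.55 CPM at day 7, and in DM2 0.0801 and 0.229 CPM at day 2 and 0.0753 and 0.0778 CPM at day 7. The 4 DM2 libraries lay below day 0 and all the others above it. DM3 day 7 exceeded DM2 day 7 by a log2 fold change of 6.96 ± 0.43 (124-fold; edgeR adjusted p = 7.09e-08), with 4 counts in the 2 DM2 libraries together. At day 2 the same difference was 10-fold, and 18.9-fold without DM2 day 2 replicate 2, where 2 counts are left in DM2.

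Adamts15 and Adamts8, which are neighbours on chromosome 9 with 20109 bases between them, shared a peak at DM3 day 7. Adamts15, a versican-cutting enzyme, had 7.19 and 8.05 CPM there, 2.78 and 1.96 CPM at DM1 day 7 and 0.527 and 0.389 CPM at DM2 day 7, against 0.314 and 0.0341 CPM at day 0. DM3 day 7 was above all other libraries, by 16.5-fold over DM2 day 7 (log2 fold change 4.04 ± 0.52; edgeR adjusted p = 3.82e-05). Its fold over day 0 was 42.9, but 196 without day 0 replicate 1, where 1 count is left at day 0, and 23.9 without day 0 replicate 2. Adamts8 had 36 counts at DM3 day 7 and 0 at day 0, at least 7.25-fold higher against the floor, and 8 counts at DM1 day 7.

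The procollagen N-proteinases Adamts2 and Adamts14 went different ways. Adamts2 had 132 and 108 CPM at DM1 day 7, 48.4 and 37.6 CPM at DM2 day 7 and 28.4 and 27.1 CPM at DM3 day 7, against 10.7 and 10.5 CPM at day 0. Its rise over day 0 was 11.3-fold in DM1 (log2 fold change 3.50 ± 0.16; edgeR adjusted p = 4.89e-09), 4.07-fold in DM2 and 2.62-fold in DM3. Adamts14 had 124 and 128 CPM at DM3 day 7, 78.9 and 71.5 CPM at DM1 day 7 and 19.6 and 18.2 CPM at DM2 day 7, against 88.0 and 78.2 CPM at day 0. DM3 day 7 was its highest group and DM2 day 7 its lowest, a difference of 6.67-fold (2.74 ± 0.14).

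Several ADAMTS genes were low at DM2 day 7. Adamts7, a protease of cartilage oligomeric matrix protein, had 9.41 and 12.3 CPM there, against 51.6 and 50.5 CPM at day 0 (log2 fold change -2.23 ± 0.15; edgeR adjusted p = 1e-07). Adamts6 had 8.58 and 6.50 CPM, against 51.7 and 54.9 CPM at day 0 (-2.82 ± 0.18). Adamts4, an aggrecanase, had 8.81 and 10.3 CPM, against 23.1 and 21.7 CPM at day 0 (-1.23 ± 0.12). Adamts10, which takes part in fibrillin microfibrils, was low in both cocktail media at day 7, with 1.14 and 1.07 CPM in DM3 and 1.47 and 1.36 CPM in DM2, against 8.16 and 7.29 CPM at day 0.

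Adamtsl3 (ENSMUSG00000070469, GRCm38 chr7:82335694-82614450, plus strand), known from human studies for its association with height, was low wherever the cocktail was present. It had 4.61 and 5.31 CPM at day 0, 11.9 and 13.3 CPM at DM1 day 2 and 5.67 and 5.34 CPM at DM1 day 7. It was 0.264 and 0.358 CPM at DM3 day 2, 0.0845 and 0.205 CPM at DM3 day 7, 0.761 and 0.878 CPM at DM2 day 2 and 2.15 and 0.934 CPM at DM2 day 7. All 8 libraries with the cocktail lay below all 6 without it. DM3 day 2 was 39.6-fold lower than DM1 day 2 (log2 fold change -5.31 ± 0.39; edgeR adjusted p = 1.19e-06). At day 7 DM3 was 36.6-fold lower than DM1, or 61.4-fold without DM3 day 7 replicate 2. The related Adamtsl1 had 0.484 and 1.43 CPM at DM3 day 2, against 4.91 and 5.14 CPM at DM1 day 2, a fall of 5.14-fold that became 10.3-fold without DM3 day 2 replicate 2. Adamtsl5 was highest at DM2 day 7 with 105 and 118 CPM, against 38.4 and 39.1 CPM at day 0 (1.52 ± 0.09).

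Adding the cocktail to the same serum, DM3 against DM1, changed 24 of the 45 genes at day 2, 10 higher and 14 lower, against 37% of all tested genes, 17.6% higher and 19.4% lower. At day 7 it changed 35, 8 higher and 27 lower, against 47.7% of all tested genes, 22.7% higher and 25.1% lower. The median log2 fold change at day 7 was -0.63 for the 45 genes and 0 for all tested genes. Of 14 MMP genes, 11 were lower and Mmp15 alone was higher at day 7, while of 12 ADAMTS genes 4 were higher and 5 lower. With libraries scaled by their totals alone, which moves the median of all genes by -0.23 in this comparison, 4 genes of the set were higher and 32 lower. With the 3 libraries of low pseudogene share left out, 18 genes differed at day 2. Without DM3 day 2 replicate 1 the day 2 split was 12 higher and 10 lower, and without DM1 day 2 replicate 1 or 2 it was 9 higher and 9 lower or 8 higher and 9 lower.

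Changing the serum under the same cocktail, DM3 against DM2, gave 16 called genes at day 2, 11 higher and 5 lower, against 16.3% of all tested genes, 9.98% higher and 6.31% lower. At day 7 it gave 34, 18 higher and 16 lower, against 52.7% of all tested genes, 27.5% higher and 25.2% lower. The day 2 count rested on single libraries: it was 7 without DM3 day 2 replicate 2 (6 higher, 1 lower), 6 without DM2 day 2 replicate 1 (5 higher, 1 lower), and 4, all higher, with the 3 libraries of low pseudogene share left out. Without DM3 day 2 replicate 1 the split was 12 higher and 1 lower, and without DM2 day 2 replicate 2 it was 9 higher and 2 lower. With libraries scaled by their totals alone it was 8 higher and 7 lower. At day 7 the families parted. Of 12 ADAMTS genes, 9 were higher and 1 was lower in DM3, and of 14 MMP genes, 2 were higher and 9 lower.

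**Figure D5:**
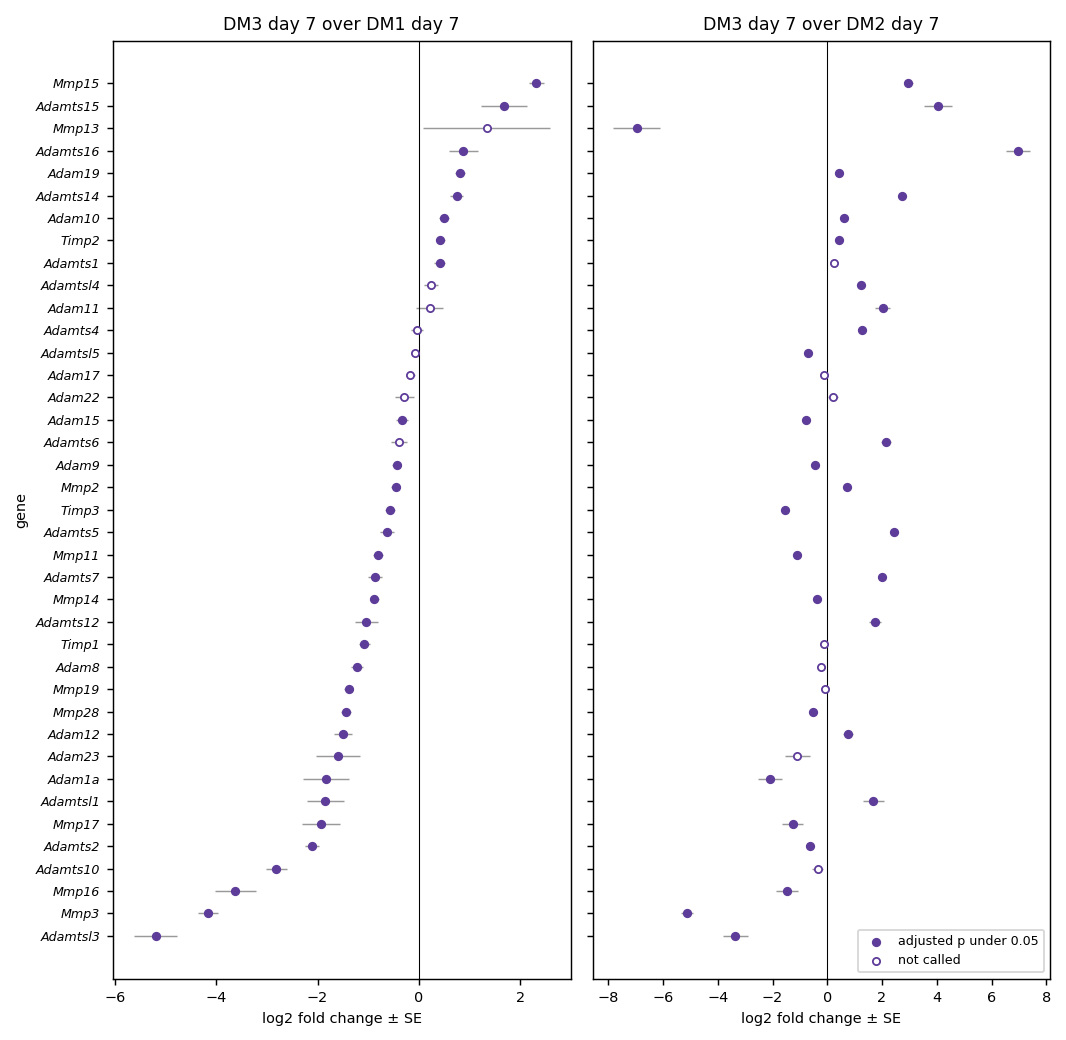
Log2 fold change with its SE (horizontal axes, which differ in range) of 39 tested genes at day 7, for DM3 over DM1 (left) and DM3 over DM2 (right), ordered by the left panel; filled points have an adjusted p under 0.05. The 6 tested genes with a group of 3 counts or fewer are left out. Adamtsl3 and Mmp3 lie far below 0 in both panels, Mmp15 and Adamts15 above 0 in both, and Mmp13 and Adamts16 at opposite ends of the right panel.

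Between the days, 23 genes were called in DM1, 18 higher and 5 lower at day 7 than at day 2 (34.3% of all tested genes, 16.8% higher and 17.5% lower). The lower calls numbered 2 without DM1 day 2 replicate 2, and 3 without DM1 day 2 replicate 1 or DM1 day 7 replicate 1. In DM2 31 were called, 17 higher and 14 lower (54.8% of all tested genes, 25.4% higher and 29.4% lower). In DM3 32 were called, 13 higher and 19 lower (47.9% of all tested genes, 22.6% higher and 25.3% lower). In DM1, 8 of 14 MMP genes were higher at day 7 and 1 was lower, while in DM3 2 were higher and 11 lower. Scaling by library totals alone moved the median of all genes in DM2 by -0.26 and gave 13 higher and 18 lower there. Whether the cocktail's effect differed between the days was tested as the difference between DM3 and DM1 at day 7 minus that at day 2: 29 genes were called, 8 higher and 21 lower (34.9% of all tested genes, 16.3% higher and 18.7% lower), with 9 of 14 MMP genes lower and 1 higher. The corresponding test for DM3 and DM2 called 24, 11 higher and 13 lower (39.8% of all tested genes, 20% higher and 19.8% lower), with 8 of 12 ADAMTS genes higher and 0 lower. Without DM3 day 7 replicate 2 or DM2 day 2 replicate 2 the higher calls of the set numbered 7. These comparisons share the DM3 libraries.

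Genes that act around these proteases were read as lists, beside the shares of all tested genes called against day 0. Those shares were 27.7% higher and 25.8% lower at DM1 day 7, 24.5% higher and 30.9% lower at DM2 day 7, and 28.9% higher and 30.1% lower at DM3 day 7. Of 9 tested genes of the plasminogen system and MMP activators, 0 were higher and 6 lower at DM3 day 7 than at day 0, with a median log2 fold change of -0.68 (0.030 for all tested genes). In DM2 at day 7, 2 of the 9 were higher and 6 lower, with a median of -0.48 (-0.030 for all tested genes). In DM1 at day 7, 1 of the 9 was higher and 5 lower, with a median of -0.36 (0.055 for all tested genes). Plau, the urokinase, had 71.0 and 86.2 CPM at DM2 day 7, against 206 and 202 CPM at day 0 (log2 fold change -1.37 ± 0.11; edgeR adjusted p = 6.84e-07). Its other day 7 levels lay above day 0, with 252 and 233 CPM in DM3 and 246 and 209 CPM in DM1. At DM3 day 7 Plau was not called higher, and the lower DM1 value lay close to the day 0 libraries. Serpine2, a thrombin and urokinase inhibitor, was high at DM2 day 7 with 117 and 113 CPM, against 14.2 and 12.1 CPM at day 0 (3.13 ± 0.13).

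Of 6 tested genes of other metalloproteinase inhibitors and modulators, 5 were higher and 1 lower at DM1 day 7, and 2 were higher and 4 lower at both DM2 day 7 and DM3 day 7. Reck, a membrane-anchored inhibitor of MMP2, MMP9 and MMP14, had 1.86 and 2.14 CPM at DM3 day 7 and 2.07 and 1.98 CPM at DM2 day 7, against 4.99 and 5.59 CPM at day 0 (log2 fold changes -1.40 ± 0.19 and -1.38 ± 0.19). Of 14 tested matrix substrates, 11 were higher and 0 lower at DM1 day 7, with a median log2 fold change of 1.25 (0.055 for all tested genes). At DM2 day 7 3 were higher and 7 lower, with a median of -0.57 (-0.030 for all), and at DM3 day 7 6 were higher and 5 lower, with a median of 0.014 (0.030 for all). Versican (Vcan), the substrate of Adamts1 and Adamts5, had 1492 and 1242 CPM at DM2 day 7, 761 and 943 CPM at DM3 day 7 and 861 and 888 CPM at DM1 day 7, against 293 and 310 CPM at day 0. It rose in all 3 media (4.53-fold in DM2, 2.82-fold in DM3 and 2.899-fold in DM1). Of 7 tested other secreted and membrane metalloproteinases, 3 were higher and 1 lower at DM1 day 7. At DM2 day 7 2 were higher and 5 lower, with a median log2 fold change of -1.21 (-0.030 for all). At DM3 day 7 2 were higher and 4 lower, with a median of -0.32 (0.030 for all). Pappa2, a member of this list that cuts IGF-binding proteins, had 36.2 and 29.1 CPM at DM1 day 7, 19.3 and 18.1 CPM at DM2 day 7 and 6.47 and 7.68 CPM at DM3 day 7, against 0.174 and 0.102 CPM at day 0. Its rise was 229-fold in DM1, 131-fold in DM2 and 49.6-fold in DM3. These folds rest on few counts at day 0, where the floor of 3 counts per library is 0.105 and 0.102 CPM. Of 8 tested partners of ADAM10 and ADAM17, 5 were higher and 1 lower at DM1 day 7, and 4 were higher and 2 lower at both DM2 day 7 and DM3 day 7. Of 19 tested proteins shed by ADAMs, 8 were higher and 9 lower at DM1 day 7, 7 higher and 10 lower at DM2 day 7, and 5 higher and 9 lower at DM3 day 7. The share called higher at DM3 day 7 was close to that of all tested genes.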

How the data were processed

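RNA of the 14 libraries was poly(A)-selected and sequenced as stranded single-end reads, per the labels' protocols. The deposited table holds RSEM expected counts per gene made by the authors. The submitters' processing notes name STAR 2.5.1b, RSEM 1.2.31 and GRCm38.p5. The expected counts were rounded, genes were filtered with filterByExpr by group (15973 kept), libraries were scaled by TMM, and all 14 were fitted in one model by group in edgeR 4.0.16 (limma 3.58.1, R 4.3.3), with the robust quasi-likelihood F test, 7 residual degrees of freedom and Benjamini-Hochberg adjustment over all 15973 genes. The SE of a log2 fold change is its size over the square root of F. Calls had an adjusted p under 0.05. Counts of 0 were set against a floor of 3 counts per library. Gene positions come from Gencode on GRCm38 and promoter windows from RefSeq on GRCm38.p6. The script was tested on simulated data.

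Genes of the set were named by rule: the markers Mmp13, Adamts16 and Adamtsl3, the TIMPs, the 12 genes highest per kb, and in each comparison the 4 called genes with the largest change in each direction, 39 genes in all. For the related lists the rule took the called genes with the largest rise and fall per comparison with day 0; of these only Plau, Serpine2, Vcan and Pappa2 are described, a choice made after their values were seen. Mmp16, Mmp17, Mmp28, Adamts2, Adamts4 and Reck are described beyond the rule, after their values were seen. The members, the related gene lists and the rule were chosen with earlier results of these data known. Library totals ran from 21907617 to 29784885, and intervals cover counting error only. Alternatives were DESeq2 1.42.0, RLE and unscaled libraries, no filter, a replicate term, and each library left out. Those added after seeing the data leave out the libraries of low pseudogene share.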

Additional observations from a re-analysis of the deposited data

Results flagged for a closer look

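In 29 genes of the set the difference between DM3 and DM1 changed from day 2 to day 7 by edgeR's quasi-likelihood test of that change, and the 4 largest changes in each direction are given here. On the log2 scale the difference moved by 2.58 for Mmp15, 1.81 for Adamts14, 1.42 for Adamts16 and 0.7 for Adamts6. It moved by -3.74 for Adam5, -3.76 for Adam23, -4.35 for Mmp3 and -10.63 for Mmp8. Mmp8 had 69 counts over all libraries together, so its fitted value depends on the prior count and is no bound. Adam23 and Mmp8 were called higher in DM3 than in DM1 at day 2 and lower at day 7, and Adamts14 was called lower at day 2 and higher at day 7. The day 7 calls of Adam23 and Mmp8 were lost without DM1 day 7 replicate 1 (edgeR adjusted p = 0.0805 and 0.0733) or DM3 day 7 replicate 2 (0.0911 and 0.0849). The call of Adamts16 was lost without DM1 day 7 replicate 2 (adjusted p = 0.0889), either DM1 day 2 library (0.0519 and 0.0538) or either DM3 day 7 library (0.0550 and 0.0671), from edgeR. The call of Adam5 was lost without DM3 day 2 replicate 2 (edgeR adjusted p = 0.0566) or DM3 day 7 replicate 2 (0.0799). The call of Adamts6 was lost without any of 6 libraries (edgeR adjusted p of 0.0646 to 0.112).

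The difference between DM3 and DM2 changed from day 2 to day 7, by the same test, in 24 genes. The 4 largest changes in each direction were 3.63 for Adamts16, 2.63 for Adamts14, 2.39 for Adamts15 and 1.81 for Adamtsl4. In the other direction they were -3.91 for Mmp8, -5.6 for Mmp3, -7.08 for Mmp13 and -8.86 for Mmp12. Adamtsl4 was called lower in DM3 at day 2 and higher at day 7; the day 2 call was lost without DM3 day 2 replicate 2 or either DM2 day 2 library (edgeR adjusted p of 0.0526 to 0.0539). The call of Adamts16 was lost without DM2 day 2 replicate 2 (edgeR adjusted p = 0.132). That of Adamts15 was lost without DM3 day 7, DM2 day 7 or DM2 day 2 replicate 2 (edgeR adjusted p of 0.0590 to 0.0896), and that of Mmp8 without any of 6 libraries (0.0610 to 0.132). The fold of Mmp13 was 135, or 67.5 without DM3 day 7 replicate 2; without replicate 1 the remaining library had 0 counts and the fit gives no usable fold. Mmp8 and Mmp12 rest on groups of 0 or few counts, so their fitted values depend on the prior count and are no bounds.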

How the results depend on the processing

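Of 158 alternative values for the 15 counts of called genes, 3 moved by over 1.5 times, all for DM3 day 2 against DM2 day 2 (16 genes). That count was 4 with the libraries of low pseudogene share left out, and between 6 and 13 with single libraries left out. Of 367 calls of the 39 genes named by rule, 20 were lost with DESeq2, 4 with RLE scaling, 14 with library totals alone, 12 without a filter, 9 with a replicate block and 46 with the low-pseudogene libraries left out. Leaving out single libraries lost the call in 211 of 1652 values, and 88 of the 367 calls were lost under at least 1 alternative. A single direction reversed: Mmp19 at DM2 day 7 against DM2 day 2, at -0.0274 with library totals alone. Of 21 pairs of groups, 2 had a correlation of replicate deviations over 0.1 and 8 had a negative one (-0.629 to 0.518). The largest were 0.518 for DM1 day 2 with day 0, -0.629 for DM3 day 2 with day 0 and -0.432 for DM1 day 2 with DM3 day 2. These groups hold the libraries of low pseudogene share. A factor common to those libraries, which the replicate numbers do not follow, was not tested. With the replicate block the DM3 day 2 against DM2 day 2 count was 11, and the other counts stayed within 1.5 times. Leave-one-out was not run on the related gene lists. With 2 libraries a group, genes of few counts, such as Mmp8, Mmp12 and Adamts8, are limited by depth.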
